A study of Mus musculus with 115 samples.

Results

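The genes described are 8 transcription factors of the luminal epithelium of the prostate, Foxa1, Spdef, Creb3l4, Gata2, Gata3, Ehf, Elf3 and Klf5. They were taken by name from a table of 45699 genes, and all 8 were in it and had a mean of at least 1 TPM. Their levels in prostate tissue of male (TRAMP x WSB) F2 mice were set against Chga, Mki67 and Tgm4, which mark neuroendocrine cells, dividing cells and prostate secretion. The table holds 1 library for each name in its header, 79 and 36 in the parts described below. The labels put all of them in 1 group, so no treated or control group exists, and do not say whether each name is a separate mouse. Every mouse was a transgene-positive offspring of a C57BL/6J TRAMP by WSB/EiJ intercross. TRAMP mice carry the SV40 T antigen under the androgen-responsive probasin promoter, which is active in the prostate epithelium, and the WSB/EiJ strain descends from wild mice. The animals were kept to a set age or to humane endpoints, and the age, tumor burden and genotype of each mouse were not used here. For small prostates the RNA came from the ventral lobe, and which libraries these were was not used here either, so lobe and tumor state cannot be told apart in these data.

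Luminal cells line the ducts of the prostate and secrete its fluid under the control of the androgen receptor. Foxa1 is a pioneer factor that opens chromatin for that receptor, and Gata2 and Gata3 are zinc finger factors that act beside it in luminal epithelia. Spdef, Ehf and Elf3 belong to the epithelial branch of the ETS family, Klf5 is a zinc finger factor of epithelial growth, and Creb3l4 is a membrane-bound bZIP factor of secretory cells. Chga encodes chromogranin A of neuroendocrine granules, Mki67 encodes the proliferation antigen Ki-67, and Tgm4 encodes a transglutaminase of the seminal fluid.

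The libraries were not all alike. On the first principal component of log2(TPM + 1), which held 48.7% of the variance, they fell into parts of 79 and 36. Correlations were therefore never pooled over both, and these parts, which come from the data, were not compared with each other in level. TPM is a share of the transcripts of a library, and depth cannot be recovered from it. Per the labels, each library had a depth of at least 43 M read pairs of 126 bases. Keratin 8 (Krt8), a defining luminal keratin, ranged from 0.14 through a median of 168 to 630.5 TPM, so a luminal marker was nearly absent from some libraries. In bulk tissue, fewer cells of a type and less RNA per cell cannot be told apart. Summed marker levels ranged from 1.49 to 172504 TPM for the seminal vesicle, from 14.3 to 6808 TPM for smooth muscle and fibroblasts and from 11.5 to 957 TPM for leukocytes, and their part in the levels of single libraries was not tested.

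Foxa1 was the factor most evenly present. It lies on chromosome 12 from 57540628 to 57546916 on the minus strand (GRCm38), and its level ranged from 0.05 through a median of 12.94 to 45.67 TPM. In 110 libraries it was at 3.11 TPM or more, and in the other 5 it was at 0.48 TPM or less, with nothing between. Spdef lies on chromosome 17 from 27714352 to 27728955 on the minus strand and ranged from 0.05 through 11.03 to 29.38 TPM. It fell into separate low and high states, with 31 libraries at 0.58 TPM or less and 84 at 1.09 TPM or more.

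The sequence just before a RefSeq start of each of these genes is shown because the first stayed at its usual level in most of the libraries in which the second was nearly absent. Each run is the part of the 250 bases before the RefSeq start that lies outside annotated exons, read 5′ to 3′ on the gene's strand (GRCm38.p6). The Foxa1 run is chr12:57546122-57546361 and the Spdef run is chr17:27728956-27729201, both on the minus strand. The Foxa1 run lies within the longer GENCODE span given above, because the RefSeq start used, at 57546111, is inside it. Capitals mark any match, on either strand, to the forkhead motif TGTTTAC, the ETS motif CCGGAA, the GATA motif AGATAA, the GC box GGGCGG bound by KLF factors, or TGACGT, the core of the CRE.
Foxa1: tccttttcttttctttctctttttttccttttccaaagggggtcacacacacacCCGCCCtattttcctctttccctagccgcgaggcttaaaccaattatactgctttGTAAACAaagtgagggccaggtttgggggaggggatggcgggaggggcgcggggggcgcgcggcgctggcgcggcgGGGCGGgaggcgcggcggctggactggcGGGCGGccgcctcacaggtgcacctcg
Spdef: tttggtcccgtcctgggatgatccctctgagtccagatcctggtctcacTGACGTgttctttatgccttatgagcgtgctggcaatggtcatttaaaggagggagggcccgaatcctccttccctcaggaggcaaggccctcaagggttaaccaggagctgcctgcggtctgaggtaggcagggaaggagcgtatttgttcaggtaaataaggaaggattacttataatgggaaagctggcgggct
Foxa1 held 1 forkhead match and 3 GC boxes, and Spdef held 1 CRE core. No 2 of these matches overlapped. Among 32851 RefSeq promoters the forkhead motif was in 3.17%, the GC box in 32.7% and the CRE core in 6.47% of windows of 250 bases, so the GC box is common and the other motifs are not. A match is a run of letters and not a measured site. RefSeq sequences of this kind were at hand for 6 of the 8 members.

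The GATA factors were ordered much alike. Gata2, on chromosome 6 from 88193891 to 88207032 on the plus strand, ranged from 0.24 through 13.21 to 35.6 TPM and had 48 libraries in its low state. Gata3, on chromosome 2 from 9857078 to 9890034 on the minus strand, ranged from 0 through 17.31 to 49.87 TPM, was listed at 0 in 2 libraries and had 36 in its low state. Each of those 36 was also low for Gata2, and 12 more were low for Gata2 alone. The low state of Gata2 reached up to 9.9 TPM and its high state began at 10.38 TPM, so it was a reduced level in many libraries. Annotated exons of Gata3 share 155 bases with the antisense gene Gm13256 and 77 bases with 9230102O04Rik on its own strand. Reads from there cannot be assigned with certainty, since the strand setting of the counting is not given in the sources used here.

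Ehf was the most abundant of the 8. On chromosome 2 from 103263433 to 103303278 on the minus strand, it ranged from 0.06 through 145.47 to 354.35 TPM. Its low state held 28 libraries at 10.05 TPM or less and its high state 87 at 15.96 TPM or more. Elf3, on chromosome 1 from 135253575 to 135258568 on the minus strand, spread from 0.04 through 6.52 to 146.11 TPM without separate states, although with median-of-ratios scaling 24 libraries formed a low state. Its exons share 162 bases with the antisense gene Gm26642.

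Creb3l4 and Klf5 were the least abundant. Creb3l4, on chromosome 3 from 90237500 to 90243512 on the minus strand, ranged from 0.03 through 2.63 to 9.8 TPM, with 25 libraries in its low state, at 0.27 TPM or less. Klf5, on chromosome 14 from 99298691 to 99315036 on the plus strand, ranged from 0.19 through 1.53 to 17.43 TPM, was under 1 TPM in 40 libraries and had no separate states. By median TPM, which is per transcript length, the order was Ehf, Gata3, Gata2, Foxa1, Spdef, Elf3, Creb3l4 and Klf5. The interquartile ranges of all 7 neighbouring pairs overlapped. Library by library, Ehf was above Gata3 in 98 libraries and Elf3 above Creb3l4 in 110, whereas Gata2 was above Foxa1 in 59 and Creb3l4 above Klf5 in 58. All 8 factors reached 1 TPM in 60 libraries, 7 of them did in 22 more, and 6 libraries had only 2 at that level.

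**Figure D1:**
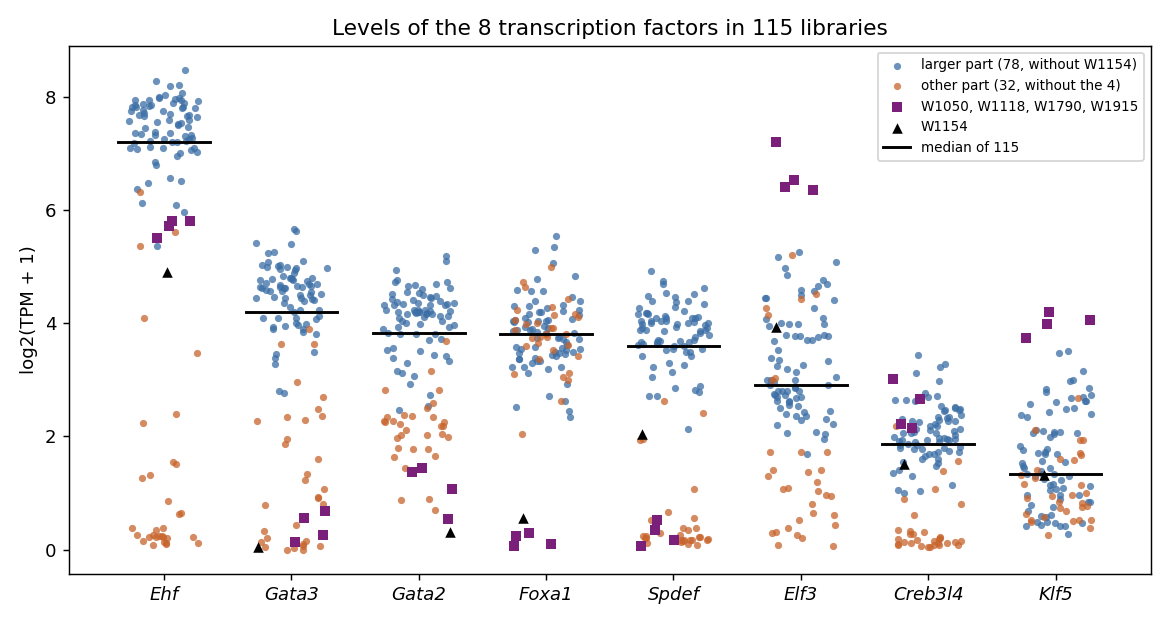
Levels of the 8 factors, as log2(TPM + 1) on the vertical axis, with 1 point per library and a bar at the median of all libraries. Foxa1 is in a single band apart from 5 libraries, Spdef, Creb3l4 and Ehf have a band of libraries near 0, and Elf3 and Klf5 are highest in the 4 libraries drawn as squares.

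The low states of Spdef, Creb3l4 and Ehf fell nearly in the same libraries. Of the 31 libraries low for Spdef, 27 were also low for Ehf and 24 for Creb3l4, and the 25 libraries low for Creb3l4 were all low for Ehf and for Gata2. Gata2 was low in all 31 libraries low for Spdef and in all 28 low for Ehf. Foxa1 did not share these states. In the 31 libraries with Spdef under 1 TPM, Foxa1 was between 3.11 and 30.97 TPM in 27, of which 26 were at 5 TPM or more, and under 1 TPM in the other 4. Foxa1 was at 1 TPM or more in all 21 libraries with Ehf under 1 TPM and in all 28 with Creb3l4 under 1 TPM.

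These states were set beside those of Chga, which was high, at 1.83 TPM or more, in 37 libraries and at 1.46 TPM or less in 78. Ehf was low in 28 libraries and Creb3l4 in 25, and all of them were high for Chga. Spdef was low in 28 of the 37 libraries with high Chga and in 3 of the others. Gata3 was low in 30 of the 37 and in 6 others, and Gata2 in 33 and in 15 others. Foxa1 was at 5 TPM or more in 35 of the 37, Elf3 in 12 and Klf5 in 3. Low Spdef, Ehf and Creb3l4 thus occurred mostly or wholly with high Chga, and Foxa1 was at its usual level in nearly all of the same libraries. Mki67 was high in 34 libraries and Tgm4 low in 39. All 31 libraries low for Spdef, 25 low for Creb3l4 and 28 low for Ehf were also low for Tgm4, and 30, 25 and 27 of them were high for Mki67. These are counts over libraries that separate on many genes at once, and no test was made of them.

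**Figure D2:**
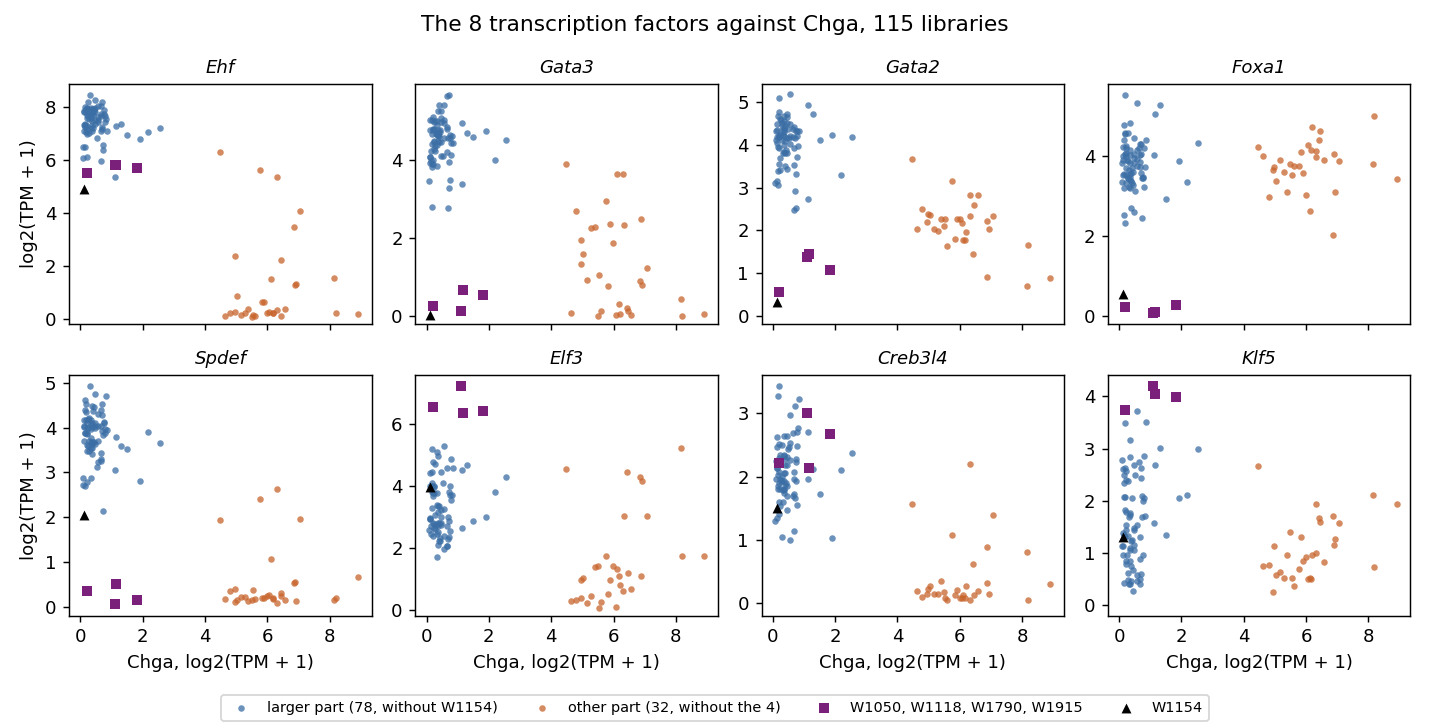
Each panel plots 1 factor against Chga, both as log2(TPM + 1), with 1 point per library and the parts of libraries in colour. Among the points with high Chga on the right, Foxa1 is at the height of the points on the left, while most values of Spdef, Ehf and Creb3l4 are near 0.

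There were exceptions on both sides. Spdef was above 1 TPM in 9 libraries with high Chga, of which W4419, W4517, W4437, W899 and W1512 belonged to the 36. Spdef was at 2.83, 4.33, 5.19, 2.9 and 1.09 TPM in these, and Ehf was at 79.16, 48.05, 40.37, 15.96 and 1.84 TPM in the same order. Chga was at 21.15, 53.27, 79.02, 132.35 and 68.11 TPM in them. The first 4 thus held both Ehf and Chga, and whether these were in the same cells cannot be read from bulk tissue. The number of such libraries depends on where Chga is called high, and 4 were high for both Spdef and Chga with a pseudocount of 0.1 or without the 20 genes of largest share.

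The 4 libraries W1050, W1118, W1790 and W1915 had another combination of factors. Foxa1 was at 0.05, 0.18, 0.22 and 0.07 TPM in them, and Spdef at 0.05, 0.27, 0.12 and 0.43 TPM. Gata2 was between 0.46 and 1.73 TPM and Gata3 between 0.1 and 0.61 TPM. Elf3, in contrast, was at 146.11, 91.52, 83.27 and 80.4 TPM, and Klf5 at 17.43, 12.37, 14.8 and 15.56 TPM, the 4 highest of all libraries for both genes. Ehf was between 44.37 and 54.89 TPM, and Creb3l4 between 3.41 and 7.05 TPM. The epithelial keratins Krt8 and Krt18 were at 369 TPM or more and at 355 TPM or more, so low Foxa1, Spdef, Gata2 and Gata3 stood beside high levels of luminal keratins.

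Other values of these 4 libraries were as follows. Hoxb13, a homeobox factor of the prostate, was at most 0.15 TPM. Foxa2, the relative of Foxa1 found in neuroendocrine prostate tumors, was between 33.68 and 53.97 TPM. Its median was 0.01 TPM over all libraries and 3.78 TPM in the 36, where it reached 62.85 TPM in W1182. Chga was between 0.15 and 2.55 TPM, Mki67 between 54.67 and 74.05 TPM and Tgm4 between 1.6 and 5.43 TPM. The neuroendocrine markers did not follow Chga, since their sum was between 185 and 301 TPM, against a median of 15.4 TPM over all libraries and at most 52.9 TPM in the 79. Summed markers of other epithelia were between 3.86 and 29.9 TPM for the seminal vesicle, between 3.48 and 14.4 TPM for the urothelium and between 9.76 and 66.5 TPM for basal cells, with medians over all libraries of 74.6, 65.6 and 29.2 TPM. The basal sum was above that median in 3 of the 4. In W1790, where it was 66.5 TPM, Krt17 alone was at 55.37 TPM. Krt5 was listed at 0 in W1118. Over the 36, Trp63 was at most 0.93, Krt5 at most 3.36, Krt14 at most 6.04 and Krt15 at most 15.47 TPM. The part of these cells in the levels of the 8 factors was not tested. These 4 were singled out after their values were seen.

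W1154, a library of the 79, also stood apart. It had Foxa1 at 0.48, Gata2 at 0.24 and Gata3 at 0.03 TPM, each the lowest of the 79, with Hoxb13 at 0.02 TPM. Spdef at 3.13, Ehf at 28.88 and Tgm4 at 0.64 TPM were also the lowest of the 79. Its Foxa2, at 3.88 TPM, was the highest of the 79 but below that of the 4. Unlike the 4, it had Klf5 at 1.48 and Mki67 at 3.8 TPM. Calls among the pairs that turn on it are given with and without it.

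The next question was whether the factors moved with Chga in the libraries where Chga was low. Within the 79, Chga itself separated, and the fit was made in the 72 libraries with Chga at 0.81 TPM or less. None of the 8 members passed the test there by limma, and of 14619 genes 0.869% were called. At an unadjusted p under 0.05, limma called 0 of the 8 too, and 11.3% of all genes. The largest r among them was 0.18, for Creb3l4 (Spearman's rho = 0.17, permutation p = 0.137 and 0.143). Chga spanned a narrow range here. Of the 10 neuroendocrine genes tested, 4 were called higher with it, among them Scg2 (r = 0.67, limma adjusted p = 2.77e-07), a granule protein. Scg2 was near the floor in the 79, with a median of 0.12 TPM and 64 libraries under 1 TPM. Its call therefore does not show whether a relation of the factors could have been seen. With TPM as deposited, a relation of the factors with Chga was not detectable among these libraries. With median-of-ratios scaling Elf3 was called lower with Chga (r = -0.35, limma adjusted p = 0.0428), where 4.05% of genes were called lower.

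Among the 36, 5 members were called with Chga, Foxa1 higher and Creb3l4, Ehf, Elf3 and Klf5 lower, where 34.1% of genes were called. Creb3l4, Ehf and Elf3 separate within the 36, so these are differences between states and no r is read from them. The 5 calls turned on the 4 libraries named above, in which Chga was at 2.55 TPM or less. Without them, 1 member was called in the 32 that remained, Gata2, which was lower where Chga was higher (r = -0.57, limma adjusted p = 0.0160). There 0.198% of genes were called lower, and the r of Foxa1 was 0.11.

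Elf3 and Klf5 were the members most closely tied to Mki67 in the 79 libraries. In 78 of them, leaving out W1154, the relation was as close. Elf3 rose by 0.74 ± 0.05 (SE) on the log2 scale per unit of log2(TPM + 1) of Mki67, with r = 0.86 and rho = 0.85. When the 2 libraries most distant from the median Mki67 were left out, r was 0.84. Its limma p, adjusted by Benjamini-Hochberg over all genes, was 1.08e-22. Klf5 rose by 0.61 ± 0.06 (SE), with r = 0.73, rho = 0.72 and r = 0.71 without those 2 libraries (limma adjusted p = 1.33e-13). The permutation p was 1e-05 for both genes and both coefficients, the smallest that 100000 permutations can give.

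Creb3l4 (r = 0.47), Foxa1 (r = 0.35) and Gata2 (r = 0.29) were also called higher with Mki67, with limma adjusted p of 2.08e-05, 0.0019 and 0.0137. Their permutation p were 2e-05, 0.00125 and 0.0096. Gata3 and Spdef had r of 0.039 and 0.064 and were not called. Ehf separated within the 79, and in the 70 libraries of its larger part it had r = -0.13 (limma adjusted p = 0.328). The 5 of 8 members are to be read against a background in which 72.9% of the 14622 genes tested were called higher with Mki67, with a median r of 0.43. Among the members the median r was 0.32. A share of 5 in 8 is thus no result about the factors as a set.

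The scaling of the libraries decided part of these calls. With median-of-ratios scaling, 3191 genes were higher and 2879 lower with Mki67, and the median r of all genes was -0.018. With 22.2% of genes called higher, Elf3 (r = 0.78) and Klf5 (r = 0.60) remained called, while Foxa1 (r = -0.0060), Gata2 (r = -0.035) and Creb3l4 (r = 0.17) did not. Without the 20 genes of largest share, Elf3 and Klf5 were again the members called, with r of 0.79 and 0.63, where 28.8% of genes were called higher. The median of all genes moved by 0.18 on the log2 scale per unit of Mki67 as deposited, and by -0.0061 with median-of-ratios scaling.

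Markers of luminal epithelium went the same way as Elf3 and Klf5. Of 11 luminal markers 10 were called higher with Mki67, as were 5 of 5 leukocyte markers and all 12 proliferation markers. Over all genes the share was 72.9%. With a luminal epithelium index in the model, Elf3 (r = 0.66) and Klf5 (r = 0.46) were still higher, where 21.1% of all genes were, and Spdef (r = -0.54) and Gata3 (r = -0.28) were called lower, where 11.3% were. With 3 principal components removed, Elf3 (r = 0.23) and Klf5 (r = -0.12) were no longer called, where 8.54% of all genes were called higher.

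Among the 36 libraries the signs were otherwise. Klf5 (r = -0.41, limma adjusted p = 0.0246, permutation p = 0.0123) and Spdef (r = -0.49, limma adjusted p = 0.0072, permutation p = 0.00371) were lower where Mki67 was higher. The background was 21.6% of genes called lower. Their rho were -0.48 and -0.35 (permutation p = 0.00377 and 0.0357). Each had 31 libraries in a lower part, at 3.34 TPM or less for Klf5 and 0.58 TPM or less for Spdef. The 5 others were at 5.38 and 1.09 TPM or more, fewer than the 6 needed to call states. These r may thus also be differences between states. Without the 4 libraries Klf5 and Spdef had r of -0.56 and -0.53, where 21.3% of genes were called lower. Elf3, Ehf and Creb3l4 themselves separated there. Elf3 was at 2.32 TPM or less in 25 of the 36 and at 7.03 TPM or more in 11, so no r is read from them. The difference between the 79 and the 36 was not tested.

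Tgm4 set the factors apart more clearly. It separated within the 79, and in the 59 libraries with Tgm4 at 2901 TPM or more Ehf, Spdef, Gata2 and Gata3 were higher, and Klf5 lower, where Tgm4 was higher. Over all 14620 genes tested 19.5% were called higher and 16.3% lower, with a median r of -0.0034, and the median over the 8 members was 0.27. None of the 8 separated within the 59.

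Ehf rose by 0.51 ± 0.05 (SE) on the log2 scale per unit of log2(TPM + 1) of Tgm4, with r = 0.82, rho = 0.81, r = 0.83 without the 2 farthest libraries and a limma adjusted p of 4.63e-13. Its level there ranged from 66.7 through 206 to 354 TPM. Spdef rose by 0.43 ± 0.06 (SE), with r = 0.66, rho = 0.66 and a limma adjusted p of 3.85e-07. Both had the smallest permutation p, 1e-05. Gata2 (r = 0.54, rho = 0.43) and Gata3 (r = 0.46, rho = 0.36) followed, with limma adjusted p of 0.00013 and 0.00185 and permutation p of 2e-05 and 3e-04 for r and 0.00087 and 0.00605 for rho. Without the 2 farthest libraries their r were 0.43 and 0.35.

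Klf5 fell by 0.52 ± 0.12 (SE) per unit of Tgm4 (r = -0.48, rho = -0.54, limma adjusted p = 0.000793, permutation p = 0.00011). Elf3 had r = -0.24 and did not pass (limma adjusted p = 0.13), but it was called lower with median-of-ratios scaling (r = -0.38) and without the 20 genes of largest share (r = -0.49), where 26.8% and 40.1% of all genes were called lower. Foxa1 (r = -0.041) and Creb3l4 (r = 0.093) showed no detectable relation, with limma adjusted p of 0.835 and 0.607. Median-of-ratios scaling gave r of 0.91 for Ehf, 0.76 for Spdef, 0.68 for Gata2, 0.60 for Gata3 and -0.67 for Klf5.

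The call of Spdef (r = 0.10) and that of Klf5 (r = 0.033) were lost when 3 principal components were removed. Ehf (r = 0.52), Gata2 (r = 0.47) and Gata3 (r = 0.42) kept theirs, and Foxa1 was called higher (r = 0.37). In that fit 13.3% of all genes were called higher and 2.62% lower. In the same 59 libraries 4 of 7 seminal vesicle markers, 6 of 10 neuroendocrine markers and 3 of 4 urothelium markers were called lower with Tgm4. Over all genes the share called lower was 16.3%. With a seminal vesicle index in the model the r were 0.80 for Ehf, 0.62 for Spdef, 0.50 for Gata2, 0.45 for Gata3 and -0.50 for Klf5. The same 5 members were called there, where 15.7% of all genes were called higher and 14% lower. The part of the neuroendocrine and urothelium markers was not tested.

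In the 36, Spdef was called higher with Tgm4 (r = 0.53, limma adjusted p = 0.0336, with 2.18% of genes called higher), but rho was 0.14 (permutation p = 0.40). Leaving out the 2 most distant libraries gave r = -0.14. That relation rests on W4517 and W4419, which had Tgm4 at 2469 and 195 TPM. The other 34 were at 18.7 TPM or less. Without W1050, W1118, W1790 and W1915, Ehf, which separates in the 36, was called beside Spdef (6.86% of genes higher), and in the 20 libraries of the 79 with lower Tgm4 none of the 8 were, with 0.219% of all genes called.

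**Figure D3:**
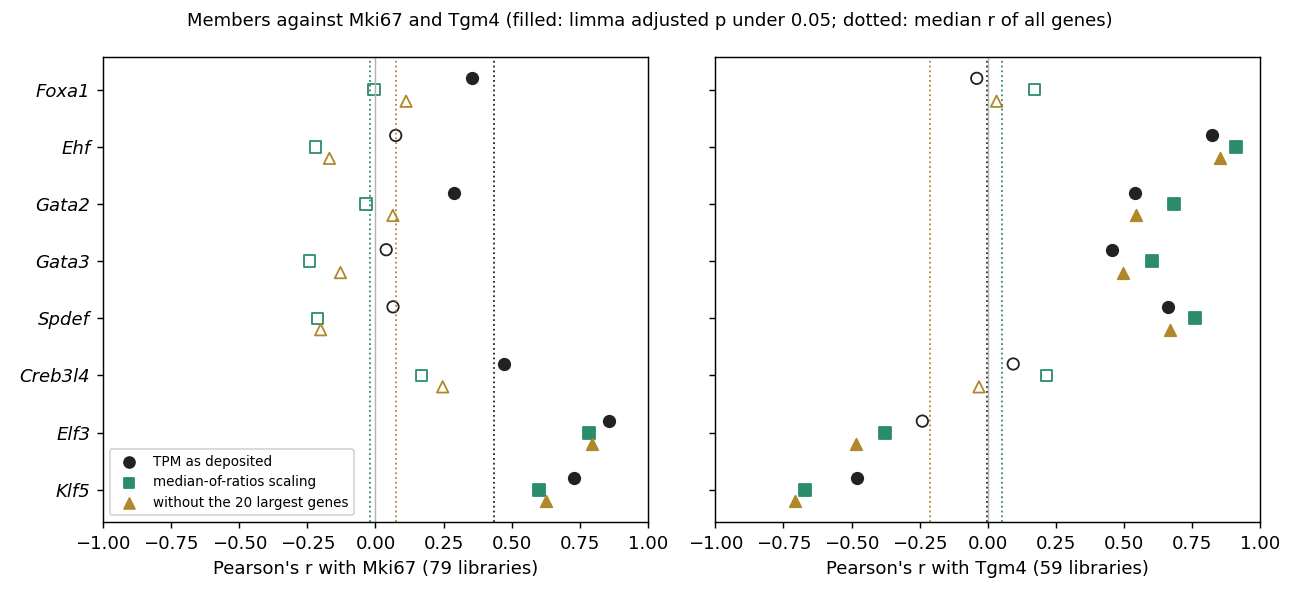
Pearson's r of each factor, on log2(TPM + 1), with Mki67 in 79 libraries (left) and with Tgm4 in 59 libraries (right), under 3 scalings. Ehf separates within the 79, so its points on the left span both of its states. Filled symbols passed limma at an adjusted p under 0.05 and dotted lines give the median r of all genes. Elf3 and Klf5 are far right of the lines for Mki67, and Ehf, Spdef, Gata2 and Gata3 for Tgm4.

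Relations among the 8 were fitted in the same way, with each factor in turn as the explanatory gene, and a pair was called where the larger of its adjusted p passed. In the 79 libraries 17 of the 28 pairs were called, all with a positive r. Without W1154, 15 were called, 14 positive and 1 negative, of which 13 were among the 17. Foxa1 with Spdef (r = 0.30 and 0.15 without it), Gata3 (0.43 and 0.14) and Ehf (0.32 and 0.12), and Spdef with Gata3 (0.38 and 0.21), were called only with it, and Gata2 with Elf3 (0.16 and 0.26) and Ehf with Klf5 (-0.22 and -0.27) only without it. The share of all genes called higher was 67.6% with Foxa1, 37.6% with Spdef, 68.7% with Creb3l4, 58.3% with Gata2, 33.4% with Gata3, 41.3% with Ehf, 76.1% with Elf3 and 77% with Klf5, so a positive call was common for any gene. Ehf separated there, with 9 libraries at 93.3 TPM or less, and W1154 was 1 of the 9. Within the 70 libraries with Ehf at 110 TPM or more 15 pairs were called, 12 with a positive and 3 with a negative r, and 12 pairs were called in both sets. The values below are those of the 70.

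Elf3 and Klf5 had the closest tie of the 28 (r = 0.91, rho = 0.92, limma adjusted p = 6.63e-26). Both went with Creb3l4, with r of 0.58 and 0.56, and with Foxa1, with r of 0.61 and 0.58. For Elf3 as the explanatory gene 76.2% of all genes were called higher, for Klf5 77.2%, for Creb3l4 65.4% and for Foxa1 59.8%, so single positive calls with them are common. With median-of-ratios scaling the r of Elf3 and Klf5 was 0.85, but those of Creb3l4 with them fell to 0.29 and 0.23 and those of Foxa1 to 0.30 and 0.20.

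Ehf went with Spdef (r = 0.57, rho = 0.55, limma adjusted p = 6.79e-06), Gata3 (r = 0.46, rho = 0.48, limma adjusted p = 0.00265) and Gata2 (r = 0.34, rho = 0.36, limma adjusted p = 0.0231). Their permutation p were 2e-05, 9e-05 and 0.00356. Gata2 went with Gata3 (r = 0.56, rho = 0.50, limma adjusted p = 4.98e-05). For these explanatory genes the background was lower, with 22.9% of genes called higher with Spdef, 23.7% with Gata2 and 4.71% with Gata3. Spdef, however, showed no detectable relation to Gata2 (r = -0.051) or Gata3 (r = -0.13) as deposited, and with median-of-ratios scaling the sign turned (r = 0.22 and 0.28). In the 79 the r of these pairs were 0.43 and 0.38, and without W1154 they were 0.28 and 0.21.

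Ehf was lower where Klf5 (r = -0.42, rho = -0.42, limma adjusted p = 0.000445) and Elf3 (r = -0.30, rho = -0.30, limma adjusted p = 0.0151) were higher, where 3.65% and 2.91% of genes were called lower. With median-of-ratios scaling these r were -0.73 and -0.57. Gata3 had r of -0.27 and -0.29 with Klf5 and Elf3, which did not pass (limma adjusted p = 0.118 and 0.0969), and -0.59 and -0.55 with the other scaling. The third negative pair, Creb3l4 and Gata3 (r = -0.33, limma adjusted p = 0.0489), had rho = -0.13 (permutation p = 0.302), with 2.3% and 5.69% of genes called lower. Among the ETS factors, Ehf and Elf3 thus went in opposite directions in these 70 libraries, a set chosen by the level of Ehf. In the 79, where Ehf separates, they were not called, with r = -0.080 (limma adjusted p = 0.572) and -0.051 without W1154. Median-of-ratios scaling gave r = -0.43 in the 79. In the 70, Elf3 was not detectably related to Spdef as deposited (r = 0.0006). That r was -0.33 with median-of-ratios scaling and -0.39 without the 20 genes, for which limma was not run in the 70.

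**Figure D4:**
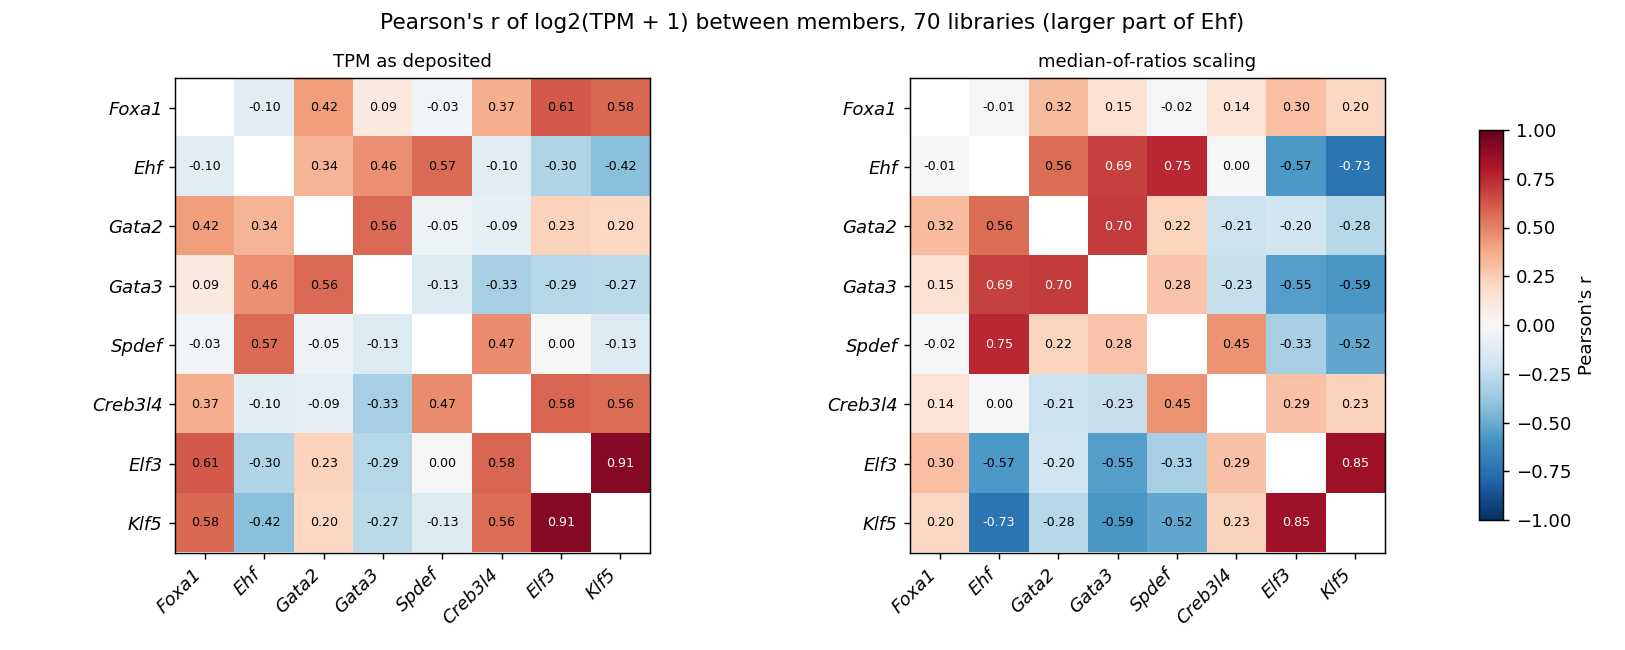
Pearson's r of log2(TPM + 1) for each pair of the 8 factors over the 70 libraries in the larger part of Ehf, with TPM as deposited (left) and with median-of-ratios scaling (right). Red is positive and blue negative. Elf3 with Klf5 (0.91 and 0.85) and Ehf with Klf5 (-0.42 and -0.73) are the extremes of both panels.

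Relatives of the 8 and other epithelial transcription factors were read in the same fits. Of 22 relatives, 14 were tested. None were called with Chga, 7 were higher with Mki67, and 3 were higher and 2 lower with Tgm4. Over all genes, 0.869% were called with Chga, 72.9% higher with Mki67, and 19.5% higher and 16.3% lower with Tgm4. The ETS factors Elf1 (r = 0.71) and Elf2 (r = 0.74), at medians of 11.8 and 21 TPM, went with Mki67. The median r of all genes with Mki67 was 0.43, and other scalings were not read for the relatives. Creb3, a bZIP relative of Creb3l4 at a median of 28.9 TPM, was higher with Tgm4 (r = 0.65, limma adjusted p = 6.8e-07), as were Klf15 (r = 0.43) and Creb3l2 (r = 0.35). Klf3 (r = -0.39) was lower with Tgm4, as Klf5 was. Elf5, at a median of 6.08 TPM, had r of -0.20 with Mki67 and 0.017 with Tgm4 and was not called.

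Of 16 other prostate and epithelial factors, 13 were tested, and 0 were called with Chga and 9 higher with Mki67. Over all genes 72.9% were called higher with Mki67, with a median r of 0.43, and other scalings were not read for these factors. With Tgm4, 3 were higher and 4 lower, where 19.5% and 16.3% of all genes were. Hoxb13, at a median of 55.2 TPM, was higher with Tgm4 (r = 0.61, limma adjusted p = 4.67e-06), and the estrogen receptor Esr1 was too (r = 0.40). With Mki67, Hoxb13 (r = 0.050) was not called. Grhl2, a grainyhead factor of epithelial junctions at a median of 17.5 TPM, went with Mki67 (r = 0.64) and not with Tgm4 (r = -0.013), and Xbp1, a bZIP factor of the secretory pathway at 76.9 TPM, also went with Mki67 (r = 0.62).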

How the data were processed

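Prostate RNA of (TRAMP x WSB) F2 males was depleted of ribosomal RNA and sequenced. The authors trimmed reads with Trimmomatic, mapped them with Bowtie2 2.2.5 to transcriptomes of both parental alleles (Seqnature, GRCm38), quantified genes with RSEM 1.2.20 and deposited TPM. The submitters' processing notes also name CASAVA 1.8.2. TPM is scaled within a library and keeps no depth, so no count model was used. The annotation version is not given in the sources used here. Names, positions and exons came from GENCODE M21, which held 98.8% of the 45699 genes, and upstream sequences from RefSeq (GRCm38.p6). The study's text gives another number of prostates than the 115 libraries and does not name them, so all were used.

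Separate parts or states were called where a mixture of 2 normal distributions on log2(TPM + 1) lowered the BIC by over 10 with an Ashman D above 2 and no part smaller than 6 libraries. Relations were tested with limma 3.58.1 (trend) on log2(TPM + 1), two-sided, for every gene averaging 1 TPM or more, adjusted by the Benjamini-Hochberg method over all genes at 0.05. Pearson's r and Spearman's rho had 100000 permutations. There were 24 relations to Chga, Mki67 and Tgm4 and 28 among the members. Whether samples of 1 label share litters or a mouse is not known, so p-values measure the spread between libraries. The names W7822 and W78022 are nearly alike. Without W78022, the members called were still 0 with Chga, 5 with Mki67 and 5 with Tgm4.

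The members and the 14 gene lists were chosen with earlier results of these data known. Genes to be named were the members, Chga, Mki67, Tgm4, genes of the 2 lists of transcription factors with a median of at least 5 TPM, the 3 of highest median in each marker list, and the 3 most like each member. Genes of no bearing on a result were left out, 1 item that the rule names is not reported here, and Krt8, Foxa2 and Scg2 were named outside the rule, after their values were seen. No member had a transcript of another gene at 95% identity over 80% of its length (BLAST+ 2.17.0). Alternatives were another pseudocount (0.1), filter or scaling, ranks, covariates, other sets of libraries, and 3 principal components removed. The scripts were tested on simulated data. The software was matplotlib 3.10.9, scikit-learn 1.9.0, R 4.3.3, scipy 1.17.1, pandas 2.3.3, Python 3.11.15 and numpy 2.4.6.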

Additional observations from a re-analysis of the deposited data

How the results depend on the processing

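No paired analysis was possible because all libraries carry 1 label and share no replicate numbers. The count of members called with Chga was 0 and became 1 with median-of-ratios scaling, 5 in the 36 libraries and 1 without the 4 libraries that stood apart there. For Mki67 the count was 5 and became 2 with median-of-ratios scaling or without the 20 genes of largest share, and 1 with 3 principal components removed. For Tgm4 it was 5 and became 1 in the 36, 2 without the 4 libraries and 0 in the 20 libraries of lower Tgm4. For pairs it was 17 and became 11 in the 36 and 8 without the 4. Rescaling without the 20 genes gave median TPM of 40.1 for Foxa1, 33.2 for Spdef, 7.76 for Creb3l4, 42 for Gata2, 51.4 for Gata3, 405 for Ehf and 5.15 for Klf5, since leaving genes out raises the share of all others. Elf3 went from 6.52 to 20.7 TPM, by less than its SD of 19.5 TPM between libraries. Every other count of members or pairs called stayed within 1.5 times. Counts of states moved more. Libraries high for both Spdef and Chga went from 9 to 4 with a pseudocount of 0.1 or the rescaling, and for both Ehf and Chga from 9 to 3. Libraries high for Spdef and low for Tgm4 went from 8 to 21 with median-of-ratios scaling, where 52 were low for Tgm4. Low Ehf and low Creb3l4 were within high Chga under all of these. The 1 member with Chga under median-of-ratios scaling was Elf3 (-0.35). Values of opposite sign were as follows, and those of Creb3l4, Ehf and Elf3 in the 36, and of Ehf in the 79, pool separate states and are not read as relations. Spdef and Klf5 in the 36 each had 5 libraries apart from the other 31, too few to be called states. In the 36, r with Chga was -0.63 for Klf5, -0.56 for Ehf and -0.65 for Creb3l4, and -0.57 for Gata2 without the 4. With Mki67 in the 36 it was -0.60 for Elf3, -0.41 for Klf5, -0.64 for Ehf, -0.49 for Spdef and -0.49 for Creb3l4, and without the 4 it was -0.74, -0.56, -0.71, -0.53 and -0.63, where Elf3, Ehf and Creb3l4 separate. Median-of-ratios scaling gave -0.035 for Gata2 and -0.0060 for Foxa1. The luminal index gave -0.48 for Ehf, -0.23 for Gata2, -0.28 for Gata3, -0.54 for Spdef, -0.020 for Creb3l4 and -0.080 for Foxa1. Removing 3 components gave -0.12 for Klf5, -0.32 for Spdef and -0.27 for Creb3l4. With Tgm4, Klf5 had 0.096 in the 36, 0.24 without the 4, 0.41 in the 20 and 0.033 with 3 components removed, where Foxa1 had 0.37. The cause was not tested. The sets without single libraries, and those by the parts of Chga, Tgm4 and Ehf, were chosen after seeing the data. TPM holds no depth, so the precision of low values is unknown.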

Other observations

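For each factor, the genes with the most similar pattern over the 79 libraries were found among all genes averaging 1 TPM or more. The values are Pearson's r of log2(TPM + 1), a description over libraries with 1 shared scaling, and the r over the 36 stands beside each. Foxa1 was most like Casz1 (0.89, and -0.20 in the 36), Ceacam1 (0.87 and -0.17) and Ipo13 (0.86 and 0.57). Spdef was most like Smim14 (0.90 and 0.64), Nudt22 (0.89 and 0.43) and Sil1 (0.89 and 0.66), the last a nucleotide exchange factor of the endoplasmic reticulum. Creb3l4 was most like Liph (0.78 and 0.76), Tmem181a (0.78 and -0.43) and Kctd5 (0.77 and 0.55). Gata2 was most like the T-box factor Tbx3 (0.90 and -0.033), Stat5a (0.87 and 0.45) and Slc35b4 (0.85 and 0.14). Gata3 was most like Arhgap28 (0.88 and 0.29), Tbx3 (0.86 and 0.056) and Ace (0.84 and 0.33). Ehf, which separates in the 79, was most like Lmo7 (0.94 and 0.78), Farsb (0.94 and 0.41) and Gpld1 (0.93 and 0.70). Elf3 was most like Kcnk5 (0.95 and 0.10), Dck (0.93 and -0.059) and Zfp850 (0.93 and 0.18). Klf5 was most like the sodium channel subunit Scnn1a (0.95 and 0.58), Arhgef4 (0.94 and 0.024) and Wnt4 (0.94 and 0.30). In the 36, all 3 genes had a positive r for Spdef, Gata3, Ehf and Klf5, and at least 1 had a negative r for Foxa1, Creb3l4, Gata2 and Elf3.

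The remaining marker lists had these counts, to be read beside the shares over all genes. With Mki67, 72.9% of genes were called higher and 1.44% lower, and with Tgm4 19.5% and 16.3%. Of 13 androgen-responsive and secretory genes tested, 6 were higher and 1 lower with Mki67, and 4 were higher and 4 lower with Tgm4. Of 10 neuroendocrine markers, 2 were higher with Mki67. Of 11 luminal markers, 5 were higher and 1 lower with Tgm4. Basal markers were higher with Mki67 in 2 of 5, urothelium markers in 1 of 4 and smooth muscle and fibroblast markers in 8 of 10, and none of the 7 seminal vesicle and 5 endothelial markers were. With Tgm4, 1 of 5 endothelial markers was higher and 1 lower, 1 of 5 leukocyte markers was lower, and none of the 12 proliferation, 5 basal and 10 smooth muscle and fibroblast markers were called by limma. With Chga, the neuroendocrine list was the only one of the 12 lists with a call.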
